A study of Mus musculus with 16 samples.

Results

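miR-511-3p is the microRNA (miRNA) cut from the 3' arm of the Mir511 hairpin, which lies within the mannose receptor gene Mrc1. It was taken as every spot that the array files name mmu-miR-511-3p and that is not a control. That gave 1 of the 1247 mouse miRNAs on the array and 2 of the 3105 probes for mouse miRNAs. RAW264.7, a virus-transformed mouse macrophage-like cell line, was the only source of RNA, so all groups share that line and its limits as a model of macrophages.

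The array set held 16 arrays, 4 in each of 4 groups. The cells of the group called Media were kept for 48 h in complete medium with no added cytokine and were not stimulated. Those of the group called Th2 were kept for 48 h with the type 2 cytokines IL-4 and IL-13 (interleukins that T helper cells of that type release) and were not stimulated. The labels give the Th2 cytokines as 10 ng per ml and do not say whether this is the dose of each or of both together. Media + IL-33 and Th2 + IL-33 had the same growth conditions, followed by a wash and 4 h of IL-33, an interleukin that injured tissue sets free as an alarm signal, at 20 ng per ml. Replicates 1 to 4 of each group are 4 independent experiments, so a p-value measures the spread between experiments with one cell line.

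miRNAs are short RNAs that guide Argonaute proteins to messenger RNAs. They pair mainly through the seed, bases 2 to 8 from the 5' end, and lower the stability or translation of the target. A miRNA inside a host gene can be released from the host's own transcript. Mrc1 encodes the mannose receptor CD206, a surface receptor that macrophages raise in response to IL-4 and that is widely used as a marker of their alternative activation. Mrc1 messenger RNA was not measured on this array.

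The mature strand and its precursor are shown because the array reads both arms of this hairpin with separate probes. The mature sequence has its seed in capitals, and the hairpin has miR-511-3p in capitals, at its bases 49 to 70. Both are RefSeq sequences for the mouse build GRCm38.p6. The mature strand of 22 bases lies at chr2:14261051-14261072 and the hairpin of 79 bases at chr2:14261003-14261081, both on the plus strand.
miR-511-3p: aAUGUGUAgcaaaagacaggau
Mir511 hairpin: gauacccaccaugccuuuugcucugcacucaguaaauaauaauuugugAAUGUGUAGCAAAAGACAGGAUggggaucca
Apart from Mir511 itself, Mrc1 was the only gene of the RefSeq table whose span holds the hairpin, and it runs on the same strand. The table used here gives no exons. The hairpin is known from the literature as intronic.

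The 2 probes for miR-511-3p are complementary to its 3' end, and the capitals mark the probe bases that lie on the seed.
17-base probe: atcctgtcttttgcTAC
18-base probe: atcctgtcttttgcTACA
The shorter probe pairs with mature bases 6 to 22 and the longer one with bases 5 to 22. The probes therefore cover 3 and 4 bases of the seed, share 17 bases and are not independent measures of the miRNA. Each matches the hairpin at 1 position. No other miRNA on the array shared the seed of bases 2 to 8, among the 1031 of 1247 names that matched RefSeq. Those with bases 2 to 7 in common were miR-1187 and miR-1198-5p. With the 18-base target of the longer probe, the other 1030 mature sequences shared a longest run of 4 bases in the median and 8 at most. That longest run belonged to miR-6416-3p (gCAAAGAGcagcaaaaggaag, seed in capitals), which was detected on 0 of 16 arrays. The next, with 7 bases, included miR-214-3p (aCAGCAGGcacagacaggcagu), detected on 6 arrays, at a relative signal of at most 0.0885.

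miR-511-3p was measured in both Th2-grown groups and was at background in both groups grown in medium. The scanner software detected it on 4 of 4 Th2 arrays and 4 of 4 Th2 + IL-33 arrays. In Media and in Media + IL-33 it was detected on 0 of 4 arrays each. Only 2 of the 1247 miRNAs (0.16%) were detected on all 8 Th2-grown arrays and on no medium-grown array. The other one was miR-532-3p. The opposite pattern was found for 0 of 1247. In bulk RNA, more cells carrying the miRNA and more of it per cell cannot be told apart.

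Levels are given as relative signal, the sum of the 2 probes divided by the 75th percentile of the 178 miRNAs detected on every array. In Th2 replicates 1 to 4 the relative signal of miR-511-3p was 0.235, 0.229, 0.220 and 0.251. In Th2 + IL-33 it was 0.240, 0.251, 0.216 and 0.289. In Media the measured values were -0.00423, -0.00714, -0.00840 and -0.00850. In Media + IL-33 they were -0.0101, -0.00733, -0.00538 and -0.00369. Values below 0 arise because the background was subtracted. All 8 Th2-grown arrays (0.216 to 0.289) lay above all 8 medium-grown arrays (-0.0101 to -0.00369), with no overlap. Such a full separation was seen for 17 of the 231 tested miRNAs (7.36%). Before scaling, the summed intensity of the 2 probes ran from 110.9 to 143 units on Th2-grown arrays and from -6.58 to -2.23 on the others.

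**Figure D1:**
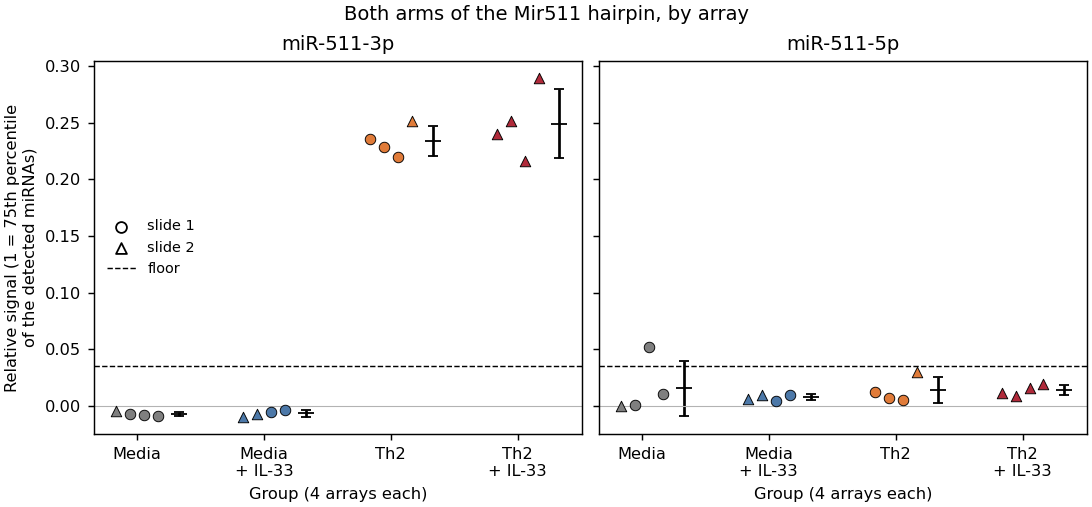
Relative signal of miR-511-3p (left) and miR-511-5p (right) on each of 16 arrays, by group, with circles for slide 1, triangles for slide 2, mean and SD beside the points (n = 4) and the floor as a dashed line. The Th2-grown arrays of miR-511-3p lie between 0.216 and 0.289 and its medium-grown arrays just below 0, while miR-511-5p lies near 0 in every group, with 1 array, Media 3, above the floor.

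Growth in Th2 cytokines without IL-33 was the first comparison. Mean relative signal was 0.234 ± 0.0133 (SD, n = 4) in Th2 and -0.00707 ± 0.00199 (SD, n = 4) in Media. For tests on a log scale, a floor of 0.0353 (-4.82 in log2, the 1st percentile over detected signals) replaced lower values, so every medium-grown array held the floor value. On that scale miR-511-3p rose by 2.73 ± 0.10 (log2, SE; 95% interval 2.52 to 2.94), with an adjusted p of 8.18e-12 in limma, the smallest of 231 miRNAs. In that comparison 22 of 231 miRNAs passed the threshold of 0.05 (9.52%), 20 of them higher (8.66%). The rise was seen in 4 of 4 experiments, where the difference in relative signal between arrays of one experiment ran from 0.229 to 0.260. Because no Media array was above background, the fold is a bound. Taking for each Media array the lowest of its signals that were well above background, miR-511-3p was at least 4.45-fold higher in Th2. Each such bound given here holds only for its reference and for this processing. Arrays at the floor add no spread, so the SE and the p partly reflect the floor. miR-511-3p was among the 231 tested only because it was detected in the Th2-grown groups, where it is high. In both Th2 comparisons its limma p and rank therefore describe these data and are not separate support.

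The same growth condition was compared with IL-33 present. Mean relative signal was 0.249 ± 0.0306 (SD, n = 4) in Th2 + IL-33 and -0.00662 ± 0.00274 (SD, n = 4) in Media + IL-33. miR-511-3p rose by 2.81 ± 0.10 (log2, SE; 95% interval 2.60 to 3.02; limma adjusted p = 5.23e-12), and was at least 4.77-fold higher. It again had the smallest p of 231, of which 22 passed (9.52%), 19 of them higher (8.23%). All 4 experiments showed it, with differences in relative signal of 0.221 to 0.293. The size of the log2 difference depended on how background was handled. With normexp background correction and an offset of 50 intensity units it was 0.90 without IL-33 and 1.09 with it (limma adjusted p = 4.7e-07 and 3.24e-08). With the probes averaged on the log scale it was 1.48 and 1.57, and with a pseudocount of 0.1 in place of the floor it was 1.84 and 1.90.

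An exact permutation test over arrays, on the measured relative signal with no floor, was also run (two-sided, 20 tests of both arms and both probes). In each Th2 comparison of 4 with 4 arrays the exact permutation p was 0.0286, the smallest that 70 arrangements allow, or 0.0635 after Benjamini-Hochberg adjustment over the 20 tests. With Th2-grown and medium-grown arrays exchanged within each IL-33 condition, the exact permutation p was 0.000408, the smallest of 4900 arrangements, and 0.00272 adjusted. The mean difference in relative signal was then 0.248 between 8 and 8 arrays. These arrays came from only 4 experiments, each of which supplied an array to every group. Arrays of the same experiment were exchanged as if they were independent, and labels were not exchanged by experiment. The values 0.000408 and 0.00272 may therefore overstate the evidence.

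IL-33 for 4 h was compared within each growth condition. In Th2-grown cells the IL-33 arrays (0.216 to 0.289) overlapped the unstimulated ones (0.220 to 0.251). The log2 difference of miR-511-3p was 0.085 ± 0.098 (SE; 95% interval -0.12 to 0.29; limma adjusted p = 1), higher in 3 of 4 experiments. The exact permutation test gave p = 0.429. Differences within experiments ran from -0.00419 to 0.0379 in relative signal. All 4 Th2 + IL-33 arrays were on slide 2 and 3 of 4 Th2 arrays on slide 1. Against the lone Th2 array on slide 2 the log2 difference was -0.021, and with slide as a block it was 0.053.

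In medium-grown cells both groups were below background, so no fold can be given for IL-33. The measured means of miR-511-3p differed by 0.000448 in relative signal (exact permutation p = 0.771). Among all tested miRNAs, 4 of 231 passed for IL-33 (1.73%) in each growth condition, and miR-511-3p was not among them. The interaction, the effect of IL-33 after Th2 growth less its effect after growth in medium, was 0.085 ± 0.14 (log2, SE; limma adjusted p = 0.995). It holds no more than the Th2-grown difference, since all medium-grown arrays sit at the floor. By level, Th2 + IL-33 came first and Th2 second, without a difference beyond their spread. Media + IL-33 and Media were both below background and have no order. The step between the Th2-grown and the medium-grown groups was larger than the spread.

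Replicate arrays agreed closely where miR-511-3p was present. Its coefficient of variation was 5.68% in Th2, where the median of 209 miRNAs detected on all 4 arrays was 9.63% and 50 of them varied less. In Th2 + IL-33 it was 12.3%, with a median of 14.6% over 207 miRNAs, 75 of which varied less. Th2 + IL-33 4 was the highest array (0.289) and Th2 + IL-33 3 the lowest Th2-grown one (0.216).

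Single spots showed the same separation. Each probe was printed 20 times on each array, which gives 320 spots over 8 arrays for each growth condition. On Th2-grown arrays 320 of 320 spots were marked well above background. On medium-grown arrays 2 of 320 were, and both were also marked as outliers by the scanner software. Outlier marks were set on 11 spots of Th2-grown arrays and 17 of the others, and 0 spots were saturated. Each array also carried 1000 spots of negative controls, with a 99th percentile of 17.9 to 24.6 intensity units on Th2-grown and 17.6 to 59.7 on medium-grown arrays. All 320 spots of miR-511-3p on Th2-grown arrays exceeded that percentile of their own array, against 2 of 320 on the others. Spots not marked as outliers ran from 33.1 to 100.2 units on Th2-grown arrays and from -12.0 to 7.51 on medium-grown ones.

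**Figure D2:**
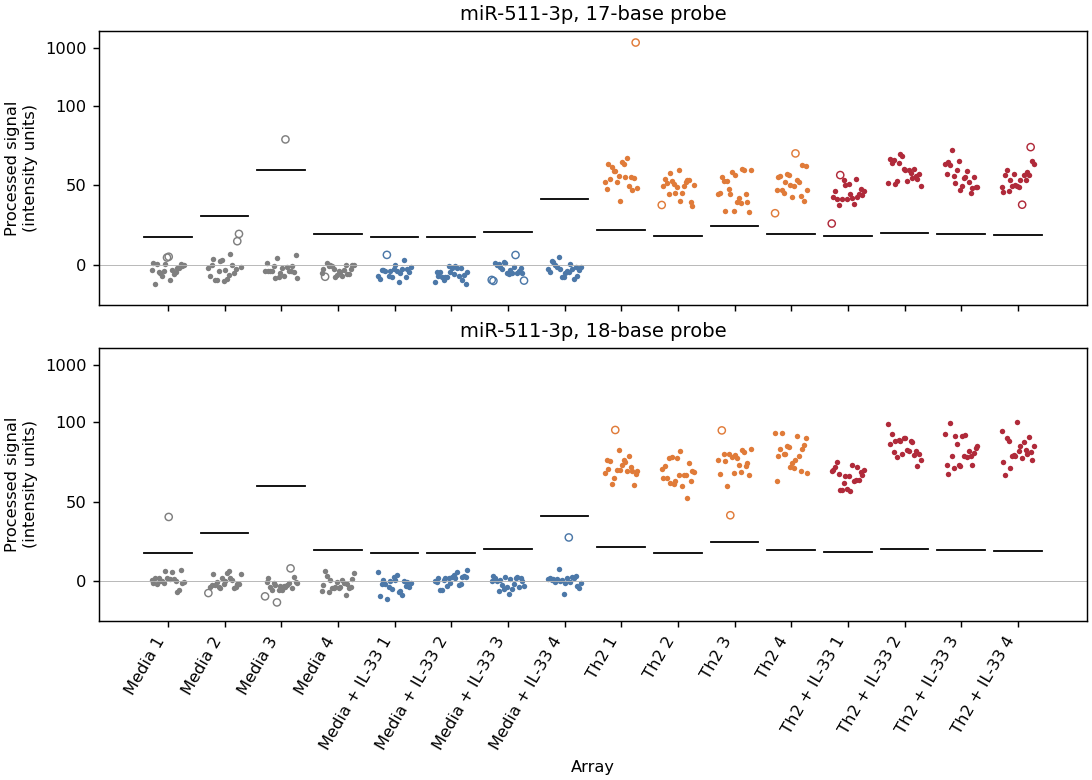
Processed signal of every miR-511-3p spot on each array for the 17-base probe (top) and the 18-base probe (bottom), on an axis that is linear to 100 and logarithmic above it, with filled points for spots used, open points for spots marked as outliers and a black line at the 99th percentile of that array's negative controls. All spots of the 8 Th2-grown arrays lie above the line, and 1 open point of the 17-base probe on Th2 1 stands at 1271.

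The probes were also tested singly. Array means of the 17-base probe ran from 45.0 to 58.8 intensity units on Th2-grown arrays and from -5.73 to -2.19 on medium-grown ones. Those of the 18-base probe ran from 66.0 to 84.6 and from -2.34 to 0.983. Neither probe's ranges overlapped, and how many of the other probes separated as fully was not counted. Without IL-33 the 17-base probe rose by 1.22 ± 0.098 (log2, SE; limma adjusted p = 2.67e-07) and was at least 2.04-fold higher. The 18-base probe rose by 1.75 ± 0.10 (limma adjusted p = 8.11e-09) and was at least 2.95-fold higher. In that fit 37 of 385 probes passed as higher (9.61%). With IL-33 the rises were 1.29 and 1.85 (limma adjusted p = 1.5e-07 and 3.16e-09), where 34 of 385 probes passed as higher (8.83%). Those rises are against 1 floor common to all arrays. The bounds, set instead from each Media + IL-33 array's own lowest probe signal above background (0.0336 to 0.0438), were at least 2.68-fold and at least 3.95-fold higher. Between Th2 + IL-33 and Th2 the log2 differences were 0.074 for the 17-base and 0.095 for the 18-base probe, neither of which passed (limma adjusted p = 0.998 each). IL-33 raised 6 of 385 probes past the threshold in each growth condition (1.56%). Single probes had their own floor, a relative signal of 0.0410, so their log2 differences are not on one footing with that of the sum. Every medium-grown array was at that floor for both probes and adds no spread. The 385 were the probes well above background on all 4 arrays of at least 1 group. Both probes of miR-511-3p entered only through the Th2-grown groups, where they are high. Their limma p-values in the Th2 comparisons therefore describe these data and are not separate support.

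One spot bears on how the miRNA is summarised. On Th2 1, a spot of the 17-base probe read 1271 intensity units, was marked as an outlier among its copies, and was left out here. The next highest copy read 67.0. With it the mean of that probe on Th2 1 was 116 units, and without it 55.2. In the submitters' own table the same probe stood at 110.0 on Th2 1, while over the 7 other Th2-grown arrays it lay between 43.0 and 72.4. With outlier spots kept, the IL-33 difference of miR-511-3p in Th2-grown cells turned from 0.085 to -0.062. The Th2 differences became 2.79 without IL-33 and 2.73 with it.

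The other arm of the hairpin, miR-511-5p, was not detected. Its 4 probes (the longest, tgagtgcagagcaaaaggca, pairs with hairpin bases 12 to 31) were printed 10 times each, again 320 spots over 8 arrays. Detection was 0 of 16 arrays. Of its spots, 3 of 320 on Th2-grown and 4 of 320 on medium-grown arrays were marked well above background, and all 7 were marked as outliers. Its relative signal was 0.0139 ± 0.0113 in Th2 and 0.0157 ± 0.0244 in Media (SD, n = 4 each). With IL-33 it was 0.0138 ± 0.00440 in Th2-grown and 0.00773 ± 0.00255 in medium-grown cells (SD, n = 4 each). The highest value, 0.0516, was on Media 3. No miR-511-5p comparison passed the exact permutation test (p = 0.943 for Th2 with Media, 0.0857 for Th2 + IL-33 with Media + IL-33, and 0.767 over both). A level below background cannot be ranked, so no ratio of the arms is given.

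Facts of the whole array set that touch these values are few. Each array carried 49880 spots for mouse miRNAs, 2040 to 3929 of them with an outlier mark, and 206 to 256 miRNAs were detected. The scaling percentile lay between 427 and 654 intensity units. Media 1, Media 3 and Th2 + IL-33 2 stood apart in an earlier analysis of these data, and without these 3 arrays the Th2 difference of miR-511-3p was 2.73 without IL-33 and 2.81 with it. The slides held groups unevenly. Within slide 1, which held 3 Th2 and 3 Media arrays, the Th2 difference was 2.69. Within slide 2 it was 2.83 without IL-33, from 1 array of each group, and 2.81 with IL-33, from 4 and 2 arrays.

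Markers of the cell line were read on the same arrays. All 5 miRNAs listed for macrophage or myeloid cells (miR-223-3p, miR-142a-3p, miR-142a-5p, miR-21a-5p and miR-146a-5p) were detected on every array. In all, 178 of the 1247 miRNAs were detected on every array. Whether each of the 5 is particular to such cells was not tested. Of the 5, miR-223-3p, miR-21a-5p and miR-146a-5p also belong to the list of alternative activation miRNAs used below, so the 2 lists are not separate. The summed relative signal of the 5 ran from 8.41 to 17.7 in Media and from 18.1 to 26.3 in Th2. It ran from 15.2 to 21.5 in Media + IL-33 and from 24.0 to 32.2 in Th2 + IL-33. The sum was thus higher on Th2 than on Media arrays, and higher on Th2 + IL-33 than on Media + IL-33 arrays, with no overlap. Among single tested miRNAs, 22 of 231 (9.52%) had every Th2 array above every Media array. The matching share with IL-33 was not counted. Most of the sum was miR-21a-5p (11.1 ± 3.92 in Media and 18.7 ± 4.07 in Th2, SD, n = 4 each). miR-142a-3p and miR-142a-5p did not pass, with log2 differences of -0.16 and -0.13 between Th2 and Media and of -0.044 and -0.11 with IL-33. Nor did miR-146a-5p, at 0.31 without IL-33 and 0.13 with it (limma adjusted p = 0.255 and 0.588). miR-21a-5p passed without IL-33 but not with it (limma adjusted p = 0.0386 and 0.139). Only miR-223-3p passed in both comparisons. The part of the sum in the difference of miR-511-3p was not tested. Of 15 miRNAs that mark hepatocytes, erythroid, muscle, neural, epithelial, endothelial, mesenchymal or lymphoid cells, 14 were detected on no array. The exception was the muscle miRNA miR-206-3p, never well above background. It was detected on 3 Media, 4 Media + IL-33, 2 Th2 and 2 Th2 + IL-33 arrays. For scale, each array detected only 206 to 256 of the 1247 miRNAs. With values below 0 counted as 0, the sum of the 15 lay between 0.0602 and 0.153 on all arrays.

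miR-511-3p was set beside other miRNAs linked to alternative activation of macrophages. The list of 15 had 9 tested members, and 5 of the 9 rose in Th2, beside 8.66% of all tested miRNAs, and 0 fell, beside 0.866%. They were miR-342-3p (2.31-fold), the myeloid miR-223-3p (2.18-fold), miR-378a-3p, which lies within Ppargc1b (2.10-fold), miR-21a-5p (1.74-fold, limma adjusted p = 0.0386) and let-7c-5p (1.57-fold). The median log2 difference of the 9 was 0.80, beside 0.063 over all 231. With IL-33 present 4 of 9 rose (8.23% of all tested) and 0 fell (1.3% of all tested), with a median of 0.60 beside 0.080. IL-33 itself raised 1 of the 9 in each growth condition (1.73% of all tested), miR-146a-5p, a target gene of NF-kB signalling that damps it. Its relative signal went from 0.231 ± 0.0336 to 0.484 ± 0.0568 in medium-grown cells and from 0.287 ± 0.0512 to 0.533 ± 0.0798 in Th2-grown ones (SD, n = 4 each).

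**Figure D3:**
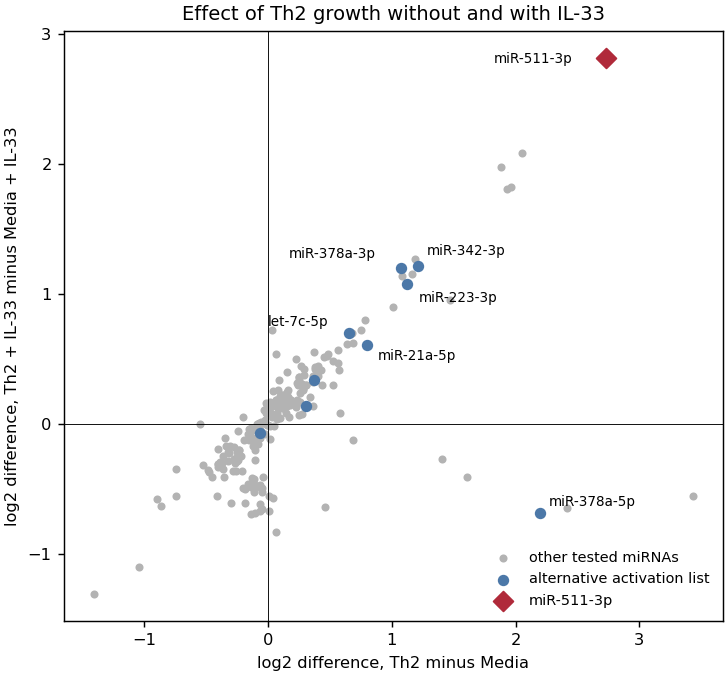
Log2 difference between Th2 and Media (horizontal) against that between Th2 + IL-33 and Media + IL-33 (vertical) for the 231 tested miRNAs, with miR-511-3p as a diamond and the 9 tested members of the alternative activation list in blue. miR-511-3p lies at 2.73 and 2.81, and miR-378a-5p, far off the diagonal at 2.20 and -0.69, did not pass in either comparison.

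Whether the Th2 difference of miR-511-3p exceeded that of 4 other miRNAs was tested on the log2 ratio within each array, with an exact permutation test and adjustment over 8 tests. It exceeded that of miR-378a-3p by 1.65 without IL-33 and 1.62 with it. For miR-342-3p the excess was 1.52 and 1.60, and for miR-223-3p 1.60 and 1.74. The ratios did not overlap between the groups in any of these 6 tests, and each exact permutation test gave p = 0.0286, adjusted 0.0327. The excess over miR-500-3p was 0.99 with IL-33 (p = 0.0286, adjusted 0.0327, exact permutation). Without IL-33 it was 0.77, the ratios overlapped, and the exact permutation p was 0.0571. With miR-511-3p at the floor on all medium-grown arrays, each excess and each p depends on that floor. miR-511-3p was tested only because it was detected where it is high, and the 4 others were chosen with earlier results of these data known. The p-values of these ratios therefore describe these data and are not separate support. For how many other tested miRNAs the ratios would also not overlap was not counted.

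The miRNAs whose log2 signal over the 16 arrays was most like that of miR-511-3p are shown with their seeds in capitals, because none of the 5 with a matched mature sequence has its seed. They are miR-362-5p (Pearson r = 0.998), miR-362-3p (0.976), miR-532-5p (0.973), miR-500-3p (0.970), miR-99a-5p (0.950) and miR-378d (0.943). No mature sequence was matched for miR-532-5p.
miR-362-5p: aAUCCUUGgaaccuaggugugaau
miR-362-3p: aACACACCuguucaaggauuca
miR-500-3p: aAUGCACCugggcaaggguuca
miR-99a-5p: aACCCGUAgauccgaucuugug
miR-378d: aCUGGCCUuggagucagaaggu
The first 3 lie on the minus strand of chromosome X, at chrX:7242019-7242042, chrX:7241984-7242005 and chrX:7237695-7237716 (GRCm38.p6). The median r of 230 miRNAs with miR-511-3p was 0.21, and 9 exceeded 0.9. These arrays form 2 clusters, Th2-grown and medium-grown, and r over all 16 is given as a description. Within the 8 Th2-grown arrays r ran from -0.0071 to 0.79 for the 6, the median over all was 0.249, and 0 of the 6 were among the 6 most alike. By Spearman rank correlation over 16 arrays 3 of the 6 were kept.

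**Figure D4:**
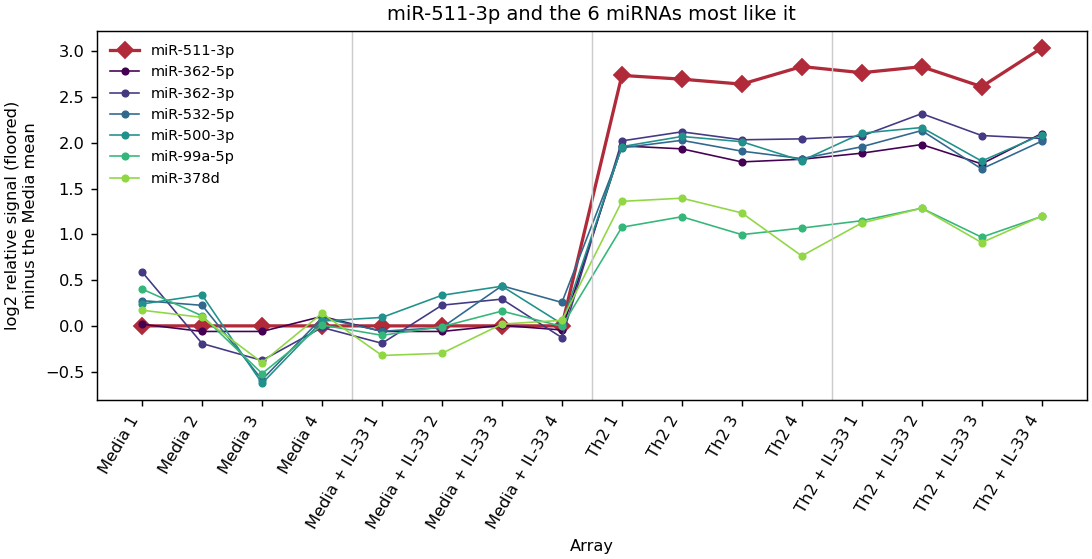
Log2 relative signal, floored, of miR-511-3p (diamonds) and the 6 miRNAs most like it on each of 16 arrays, as the difference from each miRNA's Media mean. All 7 lines step up between the medium-grown arrays on the left and the Th2-grown arrays on the right, and miR-511-3p is flat on the left because all 8 arrays are at the floor.

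How far these 6 miRNAs were measured in medium varied. miR-532-5p and miR-378d were detected on every array. miR-362-3p was detected on 2 of 4 Media and 3 of 4 Media + IL-33 arrays, and on all Th2-grown ones. miR-500-3p was detected on every array, at 0.121 ± 0.0320 in Media and 0.457 ± 0.0353 in Th2 (SD, n = 4 each). miR-99a-5p went from 2.04 ± 0.513 to 4.23 ± 0.239, and with IL-33 from 2.01 ± 0.156 to 4.43 ± 0.40 (SD, n = 4 each). miR-362-5p was detected on 1 of 4 Media arrays and 0 of 4 Media + IL-33 arrays, and on all 8 Th2-grown ones. No medium-grown array had it well above background, and it was at least 2.58-fold higher in Th2 and at least 2.71-fold higher in Th2 + IL-33 (limma adjusted p = 6.84e-10 and 3.34e-10).

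miR-532-3p, singled out after its values were seen, shared the detection pattern of miR-511-3p. Its mature strand, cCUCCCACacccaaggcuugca, lies at chrX:7248419-7248440 on the minus strand (GRCm38.p6). Relative signal was 0.0479 ± 0.0162 in Th2 and 0.0523 ± 0.0144 in Th2 + IL-33, and it was -0.0201 ± 0.00960 in Media and -0.0156 ± 0.00499 in Media + IL-33 (SD, n = 4 each). Its log2 differences of 0.48 and 0.53 did not pass (limma adjusted p = 0.114 and 0.0804), and no fold is given because its signal was not above the lowest one well above background on the medium-grown arrays. Neither miRNA that shares seed bases 2 to 7 with miR-511-3p passed between Th2 and Media. The log2 difference was -0.28 for miR-1187 (limma adjusted p = 0.38) and 0.22 for miR-1198-5p (limma adjusted p = 0.628).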

How the data were processed

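Total RNA of 16 RAW264.7 cultures was hybridised to 1-colour (Cy3) Agilent mouse miRNA arrays. Per the file headers, the authors read the scans with Agilent Feature Extraction 10.7.3.1 (header build mm9), and the deposited intensity of each spot is background-subtracted and spatially detrended, with no normalization between arrays. A second deposited table of probe intensity (Partek 6.6 and RMA, per the submitters' processing notes) has the same median and maximum in each column and served as an alternative. The spot and detection marks are other deposited columns, with values of 0 or 1.

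Spots marked as outliers were left out, spots averaged, probes of a miRNA summed, arrays scaled to the 75th percentile of 178 miRNAs detected throughout, values floored at 0.0353, and log2 taken. limma 3.58.1 in R 4.3.3 was fitted with 1 mean per group (12 residual degrees of freedom, Benjamini-Hochberg adjustment, threshold 0.05). It was fitted to the 231 miRNAs that at least 1 group had detected on its 4 arrays. The fit was also run on simulated data with no floor, which do not cover a miRNA with arrays at the floor. A probe was well above background where at least 0.5 of its spots were so marked. Precision is limited by the 4 arrays per group. The miRNAs named are miR-511-3p, its other arm, tested members of the alternative activation list, miRNAs with its seed and the 6 with the highest Pearson r. Others were added after their values were seen. The miRNA, lists and alternatives were chosen with earlier results of these data known.

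The labels give same-numbered arrays the same experiment. Over 24 such pairs, deviations from the group means correlated with a median r of 0.112 (-0.694 to 0.728, 14 above 0.1), against -0.0482 over 72 other pairs. The replicate block is an alternative. Other alternatives covered scaling, background, floor, summary of probes, detection filter, slide, array weights, arrays left out, the median of all spots and no scaling, the last pair added after seeing the data. Python 3.11.15, numpy 2.4.6, pandas 2.3.3 and scipy 1.17.1 were used. Sequences and gene names are from RefSeq tables of GRCm38.p6.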

Additional observations from a re-analysis of the deposited data

Results flagged for a closer look

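Of 80 groups of 4 arrays checked, 8 held 1 array far from the other 3 (a gap to its neighbour above the critical value of Dixon's test), where chance gives about 1 in 20. One concerned miR-511-3p itself, whose 18-base probe had a relative signal of 0.153 on Th2 4, against 0.132 to 0.135 on the other Th2 arrays. For miR-378a-5p, Media 2 stood at 0.509 against 0.00689 to 0.0875, and Th2 + IL-33 2 at 0.0528 against 0.630 to 0.680. miR-342-3p was 0.326 on Th2 4 against 0.543 to 0.575. miR-146a-5p was 0.569 on Media + IL-33 3 against 0.452 to 0.461. miR-362-3p was 0.229 on Th2 + IL-33 2 against 0.189 to 0.194, and miR-532-3p was 0.0738 there against 0.0437 to 0.0460. miR-378d was 0.0654 on Media 3 against 0.0921 to 0.0972.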

How the results depend on the processing

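The Th2 difference of miR-511-3p kept its direction and passed the threshold in 20 of 20 alternatives without IL-33 (0.90 to 3.78 on the log2 scale) and in 19 of 19 with it (1.09 to 3.85). One of the 20, within slide 2, set 1 Th2 array against 1 Media array, each assumed to vary like the other groups on that slide. Leaving out 1 array at a time gave 2.69 to 2.76 and 2.74 to 2.88. The replicate block, which pairs arrays of one experiment, left the Th2 difference at 2.73 (limma adjusted p = 8.04e-10) and changed no call of miR-511-3p. Between Th2 + IL-33 and Th2, the difference passed under no alternative run and turned negative under 3 of 19, at -0.062 in the submitters' table, -0.062 with outlier spots kept and -0.021 within slide 2. The interaction took the same values there, -0.062, -0.062 and -0.021. With 1 array left out, both ran from 0.011 to 0.15. For medium-grown cells IL-33 gave -0.14 to 0.0067, and 0 with any array left out. With no detection filter all 1247 miRNAs were tested. Those past the threshold then numbered 16 in place of 22 without IL-33 and 14 in place of 22 with it. Below background, signal sets the limit: no level of miR-511-3p in medium can be given.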
